A study of Rattus norvegicus with 9 samples.

Results

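The insulin-like growth factor (IGF) system was examined at the RNA level in rat primary hippocampal neuron cultures, through the genes of its 2 ligands (Igf1 and Igf2), 2 receptors (Igf1r and Igf2r) and 6 binding proteins (Igfbp2 to Igfbp7). These 10 genes were selected by symbol among the 34092 genes of the deposited expression table, and each symbol was found once. RNA of 9 libraries was sequenced, 3 from cultures given vehicle, 3 given 1 nM human aminoprocalcitonin (NPCT) and 3 given 1 nM procalcitonin (PCT). PCT is the parent peptide from which NPCT is cleaved. Both peptides were applied at 7 days in vitro for 24 h, and the comparisons ask what each peptide does to the neuronal transcriptome. All groups were wild-type cultures of hippocampi dissected from rat fetuses at embryonic day 17, and a strain is not given for the fetuses. The cultures were grown without mitotic inhibitors in a medium with the B27 supplement, which contains insulin, so every group was kept under insulin. RNA came from pooled samples of biological triplicates according to the methods, whereas the labels number 3 replicates per group, so the p values below measure the spread between these libraries, which may be technical.

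IGF-1 and IGF-2 are secreted peptides that act mainly through the IGF-1 receptor, a tyrosine kinase that signals by way of PI3K-Akt and Ras-MAPK to support growth and survival of neurons and glia. The IGF-2 receptor has no kinase activity; it takes IGF-2 up for degradation and sorts lysosomal enzymes that carry mannose 6-phosphate. Binding proteins hold the ligands outside the cell, and depending on the protein and on its cleavage by proteases they restrain or prolong IGF action.

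The libraries held between 13573056 and 17211642 fragments, which were recovered from the deposited values. Levels are FPKM, fragments scaled to the length of the gene and to the sequencing depth, so levels of different genes are compared per length. The label of neurons was checked against marker genes. The 10 neuronal markers summed to between 1435 and 1625 FPKM per library and the 8 astrocyte markers to between 2101 and 2658 FPKM, so the cultures held RNA of both. The 11 microglial markers summed to between 14.3 and 43.2 FPKM in 8 libraries and to 176.9 FPKM in NPCT replicate 3. Libraries NPCT replicate 3 and PCT replicate 3 stood apart from the others of their groups, with a chi-square of fragments per degree of freedom of 11.3 to 23.0 against 4.34 to 6.70 in the other pairs within groups. The mitochondrial share of fragments was 5.18 to 5.84% in vehicle, 3.70 to 4.17% in NPCT and 4.11 to 6.21% in PCT libraries. The slope of relative log2 level on log2 gene length was 0.022 to 0.043 in vehicle, -0.062 to -0.017 in NPCT and -0.049 to 0.030 in PCT libraries, so both measures separated NPCT from vehicle without overlap. In bulk RNA, fewer cells of a type and less RNA per cell cannot be told apart.

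In vehicle cultures the binding proteins among the members, other than Igfbp6, were far above the ligands. Igfbp2, a major binding protein of the developing brain, had the highest level of the system, 655 ± 11.6 FPKM (SD, n = 3 libraries). It was followed by Igfbp7, Igfbp5, Igfbp3, Igf2r, Igfbp4, Igf1r and Igf1, in this order, and the libraries of neighbours in this order did not overlap. Igf2 and Igfbp6 came last, and their ranges overlapped. Igf1 and Igf2 together measured 1.50 to 2.18 FPKM per vehicle library, and the 6 binding proteins together 960.1 to 995 FPKM. The plot of all members by library shows this span on a log axis.

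**Figure D1:**
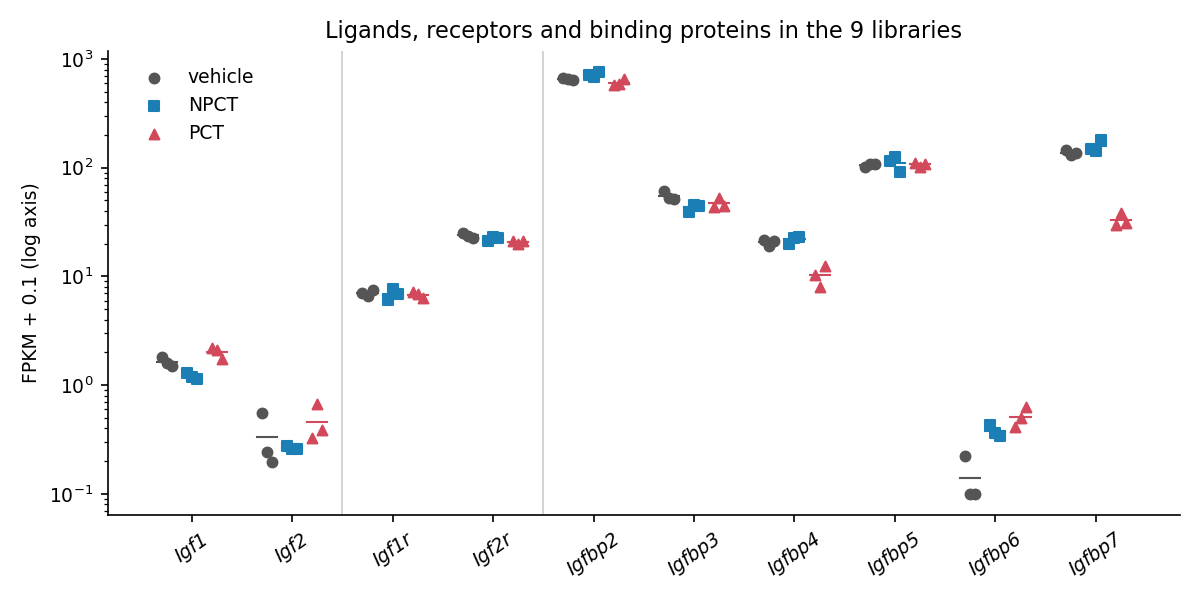
Level of each member in the 9 libraries, as FPKM plus 0.1 on a log axis; points are libraries, short lines are group means, and grey lines separate ligands, receptors and binding proteins. Igfbp7 lies at 129.8 to 180.0 FPKM in vehicle and NPCT libraries and at 29.7 to 37.9 FPKM in PCT libraries.

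Of the 10 members, 8 passed the filter of a mean of at least 0.5 FPKM over the 9 libraries and were tested, whereas Igf2 and Igfbp6 were too low. All 15958 genes above this filter were fitted together with limma on log2 of FPKM plus 0.1. A gene was called where its fold change exceeded 1.5 and its p, adjusted by Benjamini-Hochberg, did not exceed 0.05. The smallest p that 3 libraries against 3 allow in an exact permutation test, two-sided, is 0.1. Of the 8 members, 2 were called lower with PCT, Igfbp7 and Igfbp4, and 0 higher. Among all genes tested, 2.31% were called between PCT and vehicle, 1.72% lower and 0.589% higher. With NPCT against vehicle limma called 0 of the 8 members, where 0.219% of all genes were called, and limma-voom called 0 of the 8 members and 391 of all genes. An unadjusted p under 0.05 was found in 2 of these 8 members, and in 29.3% of all genes. Between NPCT and PCT, Igfbp7 and Igfbp4 were called higher and Igf1 lower, where 5.76% of all genes were called, 4.38% higher and 1.38% lower.

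The stretches before the start of Igfbp7 and Igfbp4, which fell together with PCT, are shown beside that of Igfbp2, the most abundant member, which was not called. They are given from 5′ to 3′ from RefSeq on the build GRCr8, all on the plus strand, and in the table of promoters 10 of the 10 members had an entry. Only bases before the first start listed for the gene are printed. Capitals mark GGGCGG, the GC box, and TATAAA, the TATA box, each searched on both strands. Igfbp7 is shown over 195 bases (chr14:31091486-31091680), Igfbp4 over 250 bases (chr10:84491221-84491470) and Igfbp2 over 250 bases (chr9:81864561-81864810).
Igfbp7: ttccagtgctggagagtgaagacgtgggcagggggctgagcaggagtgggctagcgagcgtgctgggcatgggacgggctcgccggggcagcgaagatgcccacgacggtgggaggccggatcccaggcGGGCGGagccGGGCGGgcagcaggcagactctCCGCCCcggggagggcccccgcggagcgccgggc
Igfbp4: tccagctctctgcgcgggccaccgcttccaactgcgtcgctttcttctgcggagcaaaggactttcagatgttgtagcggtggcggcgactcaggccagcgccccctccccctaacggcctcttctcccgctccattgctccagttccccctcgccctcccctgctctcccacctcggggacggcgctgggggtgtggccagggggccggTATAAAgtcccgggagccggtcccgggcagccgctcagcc
Igfbp2: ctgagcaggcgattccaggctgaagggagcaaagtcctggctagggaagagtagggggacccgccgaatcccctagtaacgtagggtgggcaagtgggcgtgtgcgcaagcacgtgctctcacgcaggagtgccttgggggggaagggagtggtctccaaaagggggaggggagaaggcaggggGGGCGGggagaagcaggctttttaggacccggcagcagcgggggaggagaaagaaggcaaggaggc

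The Igfbp7 stretch held 3 GC boxes and no TATA box, the Igfbp4 stretch 1 TATA box and no GC box, and the Igfbp2 stretch 1 GC box and no TATA box. Over all 33469 stretches of 250 bases in the same table, 30.5% held a GC box and 12.9% a TATA box, and over the first 195 bases the shares were 23.3% and 9.76%. The letters TGANTCA and GTAAACA, common forms of AP-1 and FOXO motifs, were searched on both strands and were not in these windows. They were in 6.34% and 3.21% of all stretches of 250 bases. The GC content was 75.4% for Igfbp7, 68.8% for Igfbp4 and 64.0% for Igfbp2, against a median of 51.2% over all stretches of 250 bases and of 50.8% over their first 195 bases. The printed stretches of Igfbp7, over 195 bases, and Igfbp4, over 250 bases, had no match in common among the motifs searched. These windows differ in length, and bases outside them were not searched. Whether any of the motifs bears on the falls with PCT was not tested.

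Igfbp7 (ENSRNOG00000002050, chromosome 14 from 33010300 to 33070190 on Rnor_6.0) encodes a secreted matrix-associated protein that binds IGFs with lower affinity than the classical binding proteins. It measured 144, 129.8 and 137 FPKM in vehicle libraries, 148, 143 and 180.0 FPKM in NPCT libraries, and 29.7, 37.9 and 30.7 FPKM in PCT libraries. All PCT libraries were far below all others, and the vehicle and NPCT libraries overlapped. Igfbp7 fell by 2.07 on the log2 scale with PCT (standard error 0.11, adjusted p = 1.4e-04 from limma), or 4.20-fold (95% interval 3.52 to 5.01). Between NPCT and vehicle the log2 fold change was 0.19 (standard error 0.11, adjusted p = 0.294), with an interval from -0.07 to 0.44. Igfbp7 was 4.79-fold higher with NPCT than with PCT (95% interval 4.01 to 5.72, adjusted p = 1.5e-04). The fall with PCT ranged from -2.18 to -2.00 over 20 alternative fits, kept its call in all of them, and was -2.03 without NPCT replicate 3 and PCT replicate 3. Polr2b and LOC103692785 overlap Igfbp7 on the opposite strand, and the library protocol did not mark strand, so reads from the overlap cannot be assigned by strand. Polr2b measured 28.1 FPKM with vehicle and 30.3 FPKM with PCT and LOC103692785 7.56 and 6.58 FPKM.

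Igfbp4 (ENSRNOG00000010635, chromosome 10 from 86950557 to 86962578) encodes a binding protein that mostly restrains IGF action and is cleaved by the protease pappalysin-1. Its level was 21.8, 19.1 and 20.9 FPKM in vehicle libraries, 19.8, 22.6 and 23.1 FPKM in NPCT libraries, and 10.2, 7.85 and 12.5 FPKM in PCT libraries. The PCT libraries were again the lowest 3, while NPCT and vehicle overlapped. With PCT, Igfbp4 fell by 1.03 on the log2 scale (standard error 0.15, adjusted p = 0.00754 from limma), or 2.05-fold (95% interval 1.62 to 2.59). With NPCT the log2 fold change against vehicle was 0.09 (adjusted p = 0.737), with an interval from -0.25 to 0.42. The direct difference between the peptides was 1.12 on the log2 scale, higher with NPCT (standard error 0.15, adjusted p = 0.00314). The fall with PCT kept its call in all 20 alternatives, from -1.19, without NPCT replicate 3 and PCT replicate 3, to -0.86.

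**Figure D2:**
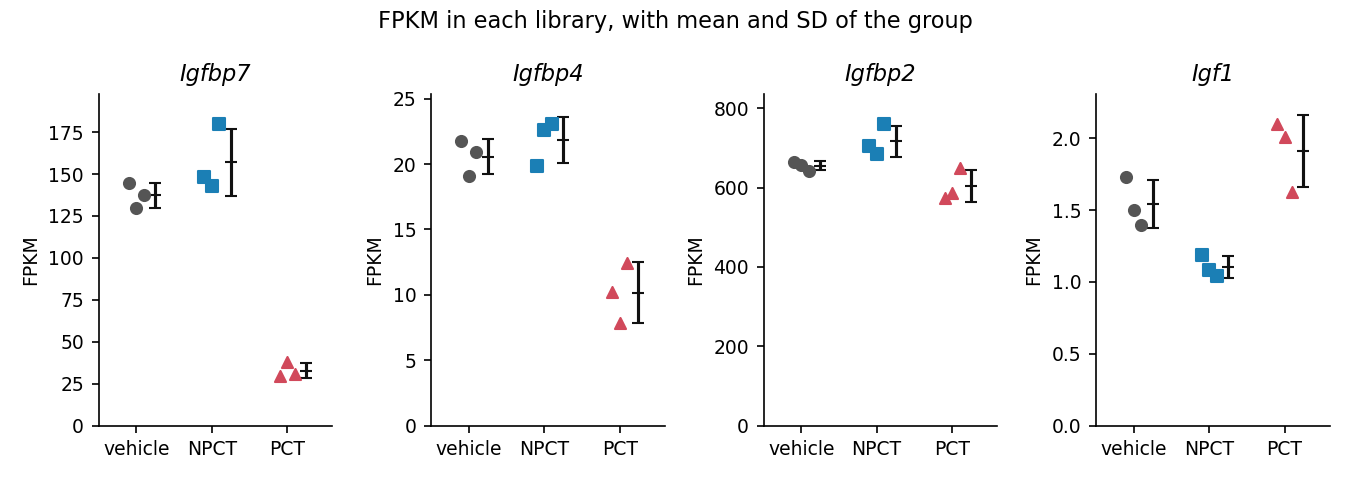
FPKM of Igfbp7, Igfbp4, Igfbp2 and Igf1 in each library, with the mean and SD of the 3 libraries of a group in black; every axis starts at 0. Igfbp7 and Igfbp4 are lowest in the PCT libraries, and Igf1 is lowest in the NPCT libraries at 1.04 to 1.19 FPKM.

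With PCT, 7 of 8 astrocyte markers and 11 of 11 microglial markers had fold changes below 0. Of the 8 astrocyte markers, 5 were called lower with PCT, where 1.72% of all genes were called lower. The sum of the 8 was 2438 to 2616 FPKM in vehicle, 2385 to 2658 FPKM in NPCT and 2101 to 2170 FPKM in PCT libraries. Gfap, the defining filament of astrocytes, was not among the 5 and measured 776 FPKM with vehicle and 919 FPKM with PCT on average. Of 11 microglial markers tested, 3 were called lower with PCT, against the same 1.72%. In 7 of the 11 all PCT libraries lay below all vehicle libraries, where 24.9% of all genes did not overlap in either direction. The sum of the 11 was 27.7 to 39.7 FPKM in vehicle, 38.8 to 176.9 FPKM in NPCT and 14.3 to 19.1 FPKM in PCT libraries. Endothelial markers were close to absent, with Cldn5 listed at 0 in all 9 libraries and a sum of 1.06 to 1.83 FPKM. The 4 pericyte markers summed to 0.232 to 0.548 FPKM. The oligodendrocyte lineage markers summed to 409 to 426 FPKM in vehicle and 353 to 367 FPKM in PCT libraries, where 0 of 8 were called and 6 of 8 fold changes were above 0. Olig1, the most abundant of them, had a log2 fold change of -0.51 (adjusted p = 0.00161 from limma), which is below the fold threshold. All 5 proliferation markers had fold changes below 0 with PCT, and 0 were called. Ttr, the transthyretin of choroid plexus, was called higher (log2 fold change 1.00, adjusted p = 0.0020 from limma), and the choroid plexus markers summed to 13.1 to 15.4 FPKM in vehicle, 19.9 to 23.1 FPKM in NPCT and 24.5 to 30.7 FPKM in PCT libraries. Of 7 fibroblast and meningeal markers tested, 1 was called, Col3a1, a fibrillar collagen, which was higher (log2 fold change 0.87). Pdgfrb was at -0.32. These markers summed to 58.2 to 62.6 FPKM in vehicle, 41.1 to 45.2 FPKM in NPCT and 52.4 to 74.2 FPKM in PCT libraries. Fn1 made up most of this sum, at 43.4 FPKM with vehicle, 27.4 FPKM with NPCT and 40.4 FPKM with PCT on average. The part of these cell types in the falls of Igfbp7 and Igfbp4 was not tested.

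Igfbp2 (ENSRNOG00000016957, chromosome 9 from 80118029 to 80144789) measured 666, 656 and 643 FPKM in vehicle libraries, 705, 685 and 761 FPKM in NPCT libraries, and 575, 587 and 649 FPKM in PCT libraries. The NPCT libraries lay above all vehicle libraries, and the PCT libraries overlapped with vehicle. The log2 fold change was 0.13 with NPCT (adjusted p = 0.239 from limma) and -0.12 with PCT (adjusted p = 0.397). Between the peptides it differed by 0.25 on the log2 scale (standard error 0.07, adjusted p = 0.0409), a fold of 1.19 that is below the fold threshold. Between the peptides, 16.3% of all genes passed on the adjusted p alone, whatever their fold.

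Igfbp5 (ENSRNOG00000017206, chromosome 9 from 80150211 to 80167033) lies 5421 bases from Igfbp2 with no gene listed between them, and the pair is read toward each other from opposite strands. Igfbp5, a binding protein that attaches to matrix and cell surfaces, measured 101, 108 and 108 FPKM in vehicle libraries, 116, 124 and 91.0 FPKM in NPCT libraries, and 111, 101 and 109 FPKM in PCT libraries. All 3 groups overlapped. The log2 fold change was 0.05 with NPCT (95% interval -0.19 to 0.29) and 0.02 with PCT (95% interval -0.22 to 0.26), and its sign turned in 1 of 20 alternatives with NPCT, in 3 with PCT, quantile normalization among them, and in 3 between the peptides.

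Igfbp3 (ENSRNOG00000061910, chromosome 14 from 87457647 to 87465374), the main IGF carrier of serum, measured 61.4, 52.7 and 50.9 FPKM in vehicle libraries, 39.2, 45.2 and 44.5 FPKM in NPCT libraries, and 43.7, 52.2 and 44.7 FPKM in PCT libraries. The NPCT libraries all lay below vehicle, whereas 1 PCT library overlapped with it. With NPCT the log2 fold change was -0.35 (standard error 0.10, 95% interval -0.58 to -0.13), with an adjusted p of 0.0657 from limma that did not pass, and with PCT it was -0.23 (adjusted p = 0.246). With the gene length trend removed the value with NPCT was -0.34 (adjusted p = 0.0738). The adjusted p from limma passed with only NPCT and vehicle libraries fitted (0.0341) and without PCT replicate 3 (0.0384). The fold in both fits stayed below the fold threshold, so Igfbp3 was not called. The fibroblast and meningeal markers summed to 41.1 to 45.2 FPKM in NPCT libraries, below the 58.2 to 62.6 FPKM of vehicle. Most of this sum was Fn1 alone, which averaged 43.4 FPKM with vehicle and 27.4 FPKM with NPCT (log2 fold change -0.66). With NPCT 0 of 7 were called, 2 fold changes were above 0 and 5 below, and their median on the log2 scale was -0.05. The part of these markers in the level of Igfbp3 was not tested. Igfbp1, which lies 3861 bases away, was near 0, with group means of 0.0711 FPKM with vehicle, 0.0293 FPKM with NPCT and 0.117 FPKM with PCT.

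Igfbp6 (ENSRNOG00000010977, chromosome 7 from 143749221 to 143754054), which prefers IGF-2 over IGF-1, was the lowest of the 6 binding proteins among the members and was left out of the main test. It had 2, 0 and 0 fragments in vehicle libraries, 5, 4 and 4 in NPCT libraries, and 5, 6 and 10 in PCT libraries. Every library with peptide was above every vehicle library, at a depth of at most 10 fragments. Summed over the group and scaled to the total, the fragments were 6.82 times those of vehicle with NPCT (95% interval 1.54 to 62.2) and 10.1 times with PCT (95% interval 2.48 to 89.2). These exact 95% intervals cover counting error only. With no filter on low values, limma called Igfbp6 higher with PCT (log2 fold change 1.96, adjusted p = 0.0433). This made it the third member called in that comparison, where 303 of all 23491 genes were called in the same fit. With NPCT, limma gave Igfbp6 an adjusted p of 0.084 in that fit.

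The binding proteins together measured 960.1 to 995 FPKM in vehicle, 1020.5 to 1100.0 FPKM in NPCT and 770.4 to 846 FPKM in PCT libraries, and the 3 ranges did not overlap. Igfbp7 made up 14.1 ± 0.573% of this sum in vehicle, 14.9 ± 1.26% in NPCT and 4.10 ± 0.635% in PCT libraries (SD, n = 3 each). The share of Igfbp2 was 67.3 ± 0.590%, 68.3 ± 1.04% and 75.3 ± 1.18% in the same order. On average the sum was 172 FPKM lower with PCT than with vehicle. The level of Igfbp7 was 104 FPKM lower and that of Igfbp2, which was not called, 51.0 FPKM lower. With NPCT the sum was 76.4 FPKM higher than with vehicle, Igfbp2 62.4 FPKM higher and Igfbp7 19.9 FPKM higher, and neither gene was called. In the order of levels, Igfbp7 came next after Igfbp2 with vehicle and NPCT, and after Igfbp5 and Igfbp3 with PCT, without overlap between these neighbours.

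**Figure D3:**
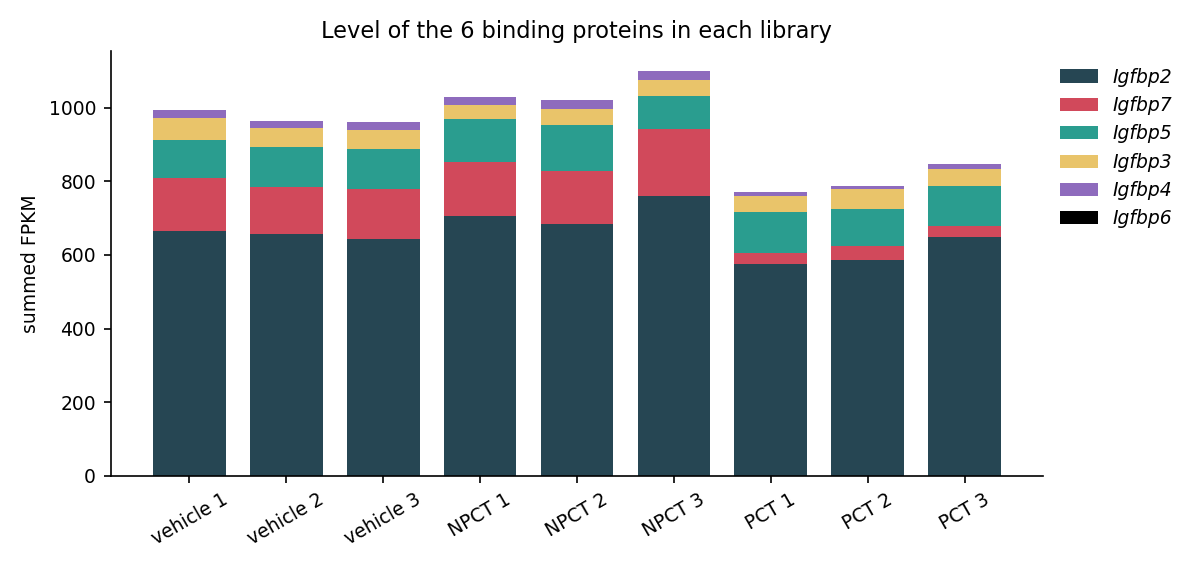
Summed FPKM of the 6 binding proteins in each library, stacked by gene from 0. The red Igfbp7 segment is 3.62 to 4.82% of the bar in PCT libraries and 13.4 to 16.4% in the others, and Igfbp6 is too low to be seen.

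Igf1 (ENSRNOG00000004517, chromosome 7 from 28412198 to 28486609) measured 1.73, 1.50 and 1.40 FPKM in vehicle libraries, 1.19, 1.09 and 1.04 FPKM in NPCT libraries, and 2.10, 2.01 and 1.63 FPKM in PCT libraries. The NPCT libraries were the lowest 3, and vehicle and PCT overlapped. These levels rest on 30 to 60 fragments per library. The log2 difference between NPCT and PCT was -0.73, or 1.66-fold lower with NPCT (standard error 0.19, 95% interval 1.24 to 2.23, adjusted p = 0.0324 from limma). This call was lost in 10 of 20 alternatives, with adjusted p values from 0.0192 to 0.111 over all of them, among them a fit of only NPCT and PCT libraries (adjusted p = 0.0842) and the fits without NPCT replicate 1, 2 or 3, PCT replicate 1 or 2 and vehicle replicate 1 or 2. Without NPCT replicate 3 and PCT replicate 3 together it was kept (-0.80, adjusted p = 0.0351). Against vehicle, the log2 fold change was -0.44 with NPCT (adjusted p = 0.158) and 0.29 with PCT (adjusted p = 0.458). Microglia are a known source of IGF-1 in brain, and the microglial markers summed to 38.8 to 176.9 FPKM in NPCT and 14.3 to 19.1 FPKM in PCT libraries. Of the 10 neuronal markers, 7 had fold changes below 0 between NPCT and PCT and 3 above, with a median of -0.24 on the log2 scale, and 0 were called. The part of either cell type in the level of Igf1 was not tested.

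Igf2 (ENSRNOG00000020369, chromosome 1 from 215828102 to 215846911) had 39, 12 and 8 fragments in vehicle libraries, 14, 13 and 14 in NPCT libraries, and 19, 46 and 28 in PCT libraries, or 0.0980 to 0.574 FPKM. The vehicle libraries overlapped both other groups, vehicle replicate 1 held most of the vehicle fragments, and all PCT libraries were above all NPCT libraries. Summed and scaled as for Igfbp6, the fragments were 0.729 times those of vehicle with NPCT (95% interval 0.477 to 1.104) and 1.52 times with PCT (95% interval 1.09 to 2.15, counting error only). Without vehicle replicate 1, a choice made after seeing the data, these ratios became 1.42 (95% interval 0.810 to 2.55) and 2.96 (95% interval 1.81 to 5.06), so the direction with NPCT rests on that library. With no filter on low values, the test over libraries by limma did not pass, with an adjusted p of 0.885 with NPCT and 0.642 with PCT.

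Neither receptor was called in any comparison. Igf1r (ENSRNOG00000014187, chromosome 1 from 128924966 to 129206516) measured 7.01, 6.53 and 7.48 FPKM in vehicle libraries, 5.998, 7.49 and 6.74 FPKM in NPCT libraries, and 7.07, 6.83 and 6.20 FPKM in PCT libraries. The groups overlapped, and the log2 fold change was -0.06 with NPCT (95% interval -0.30 to 0.18, adjusted p = 0.752) and -0.06 with PCT (95% interval -0.31 to 0.18, adjusted p = 0.809 from limma). Igf2r (ENSRNOG00000014997, chromosome 1 from 48176106 to 48264477) measured 25.2, 23.7 and 22.4 FPKM, 21.1, 22.7 and 22.3 FPKM, and 20.9, 19.7 and 21.0 FPKM in the same order. All PCT libraries of Igf2r were below vehicle, with a log2 fold change of -0.21 (95% interval -0.36 to -0.06), and the adjusted p of 0.123 did not pass. Igf2r was 3.41 ± 0.352 times as high as Igf1r in vehicle, 3.29 ± 0.240 times in NPCT and 3.08 ± 0.264 times in PCT libraries (SD, n = 3 each).

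**Figure D4:**
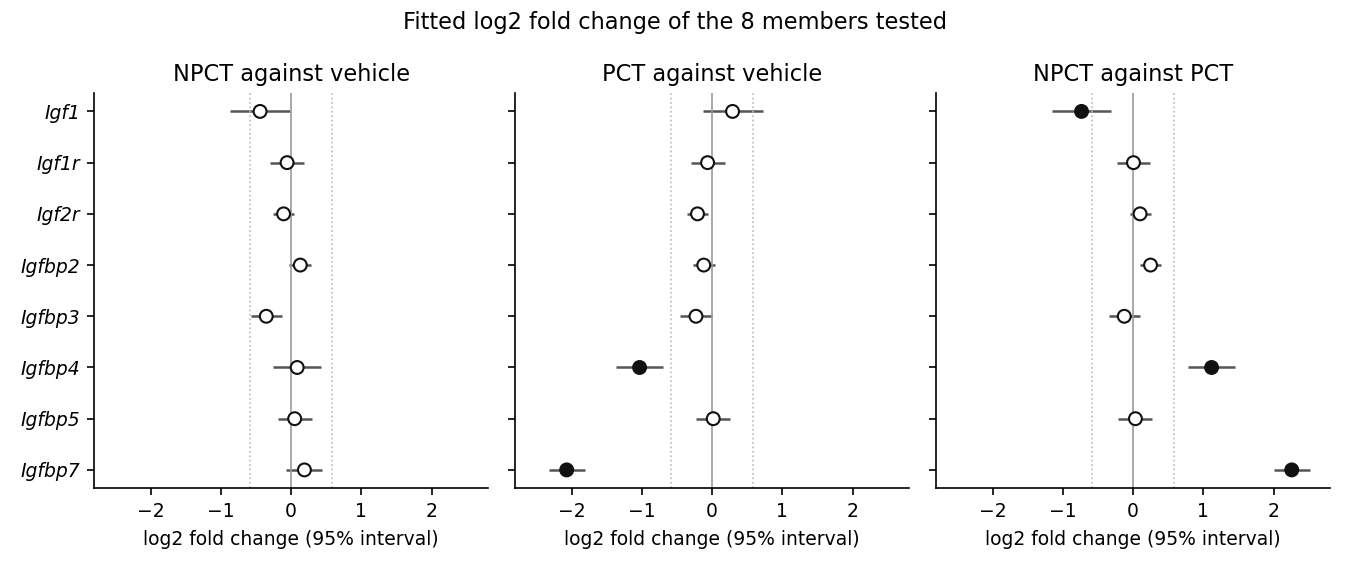
Log2 fold change of the 8 members tested, with 95% intervals from limma, in the 3 comparisons; filled points were called and dotted lines mark a fold change of 1.5. Igfbp7 and Igfbp4 are called with PCT and between the peptides, Igf1 only between the peptides, and no member with NPCT against vehicle.

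The libraries of the groups did not overlap in 3 of the 8 members tested between NPCT and vehicle, where this held for 40.3% of all genes, and in 3 between PCT and vehicle, where it held for 24.9%. Between NPCT and PCT it held for 5 of 8 members and for 33.4% of all genes. The median log2 fold change over the 8 members was 0.00 with NPCT and -0.16 with PCT, against 0.01 and 0.00 over all genes. The comparisons with vehicle share the vehicle libraries and are not independent of each other.

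Genes with the most similar pattern were sought for the 3 members called in any comparison, by the mean absolute difference of log2 levels centred on each gene's mean, over 9 libraries and 14969 candidate genes. Among the closest to Igfbp7 were C1r, a protease of the classical complement pathway (difference 0.10), and Cyp4f4, a cytochrome P450 (0.14). C1r measured 39.3, 39.4 and 9.16 FPKM on average with vehicle, NPCT and PCT, and Cyp4f4 3.46, 3.63 and 0.817 FPKM. Closest to Igfbp4 were Ddit4, an inhibitor of mTORC1 (0.07), Col4a1, a basement membrane collagen (0.09), and Apln, which encodes the peptide apelin (0.10). Ddit4 measured 124.8 FPKM with vehicle, 140.5 FPKM with NPCT and 66.4 FPKM with PCT. Closest to Igf1 were Hectd2 (0.05), AABR07045684.1 (0.07) and Arhgap29 (0.08), all of them highest with PCT and lowest with NPCT on average. All genes named here were picked for their likeness over the same 9 libraries. That they share the order of groups with their member follows from this choice.

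Beyond the members, a list of 53 other genes of the pathway was read from the same fit, 51 of which were in the table and 44 above the filter. With NPCT 0 of 44 were called by limma, and with PCT 1 was higher and 1 lower, 2 of 44 against a background of 2.31%. Between NPCT and PCT 2 were higher and 0 lower, against 5.76%. The median log2 fold change of the 44 genes was -0.08 with NPCT and 0.00 with PCT.

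Htra1, a secreted serine protease that cleaves matrix and IGF binding proteins, measured 10.7, 9.40 and 8.77 FPKM in vehicle libraries, 12.2, 14.3 and 9.70 FPKM in NPCT libraries, and 5.54, 4.31 and 4.85 FPKM in PCT libraries. The PCT libraries were lowest without overlap. Htra1 fell by 0.96 on the log2 scale with PCT (standard error 0.15, adjusted p = 0.0116 from limma), a call lost only without vehicle replicate 1 (adjusted p = 0.0601), and was 2.42-fold higher with NPCT than with PCT (adjusted p = 0.00226). Stc1 and Stc2, the stanniocalcins that inhibit pappalysins, were not called, nor was Adamts1, and Pappa2 was below the filter.

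Eif4ebp1, the translation repressor that mTORC1 inactivates, measured 30.7, 37.4 and 33.9 FPKM in vehicle libraries, 53.4, 53.7 and 62.5 FPKM in NPCT libraries, and 48.9, 57.1 and 70.2 FPKM in PCT libraries. Every library with peptide was above every vehicle library. It rose by 0.78 on the log2 scale with PCT (adjusted p = 0.0151 from limma), a call lost without vehicle replicate 1 or 3 (adjusted p = 0.0731 and 0.0618). With NPCT the log2 fold change was 0.73 with an adjusted p of 0.0509, which passed in 8 of 20 alternatives but not with the gene length trend removed (0.0515), and the direct difference between the peptides was -0.04 on the log2 scale (95% interval -0.34 to 0.26). The other 19 genes of the PI3K-Akt-mTOR list, among them Akt1, Mtor and Foxo3, were not called in any comparison.

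Among the adaptors, Shc1, which links the receptor to Ras, measured 9.40, 8.42 and 8.68 FPKM in vehicle, 9.79, 9.47 and 15.2 FPKM in NPCT and 5.96, 7.11 and 7.26 FPKM in PCT libraries. It was 1.65-fold higher with NPCT than with PCT (adjusted p = 0.0259 from limma), but without NPCT replicate 3 the log2 difference went from 0.72 to 0.51, below the fold threshold. The call was lost in 5 of 20 alternatives, the others being the fits without PCT replicate 1 (adjusted p = 0.0872), without PCT replicate 2 (0.0625), with only NPCT and PCT libraries (0.0787) and without NPCT replicate 3 and PCT replicate 3 together (log2 difference 0.56). Irs1, Irs2, Grb2, Grb10 and Sos1 were not called, and neither was any of the 7 Ras-MAPK genes. Insr, the insulin receptor, measured 9.44 FPKM with vehicle, 8.39 FPKM with NPCT and 9.45 FPKM with PCT on average, and Ins1 and Ins2 were listed at 0 in all 9 libraries.

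**Figure D5:**
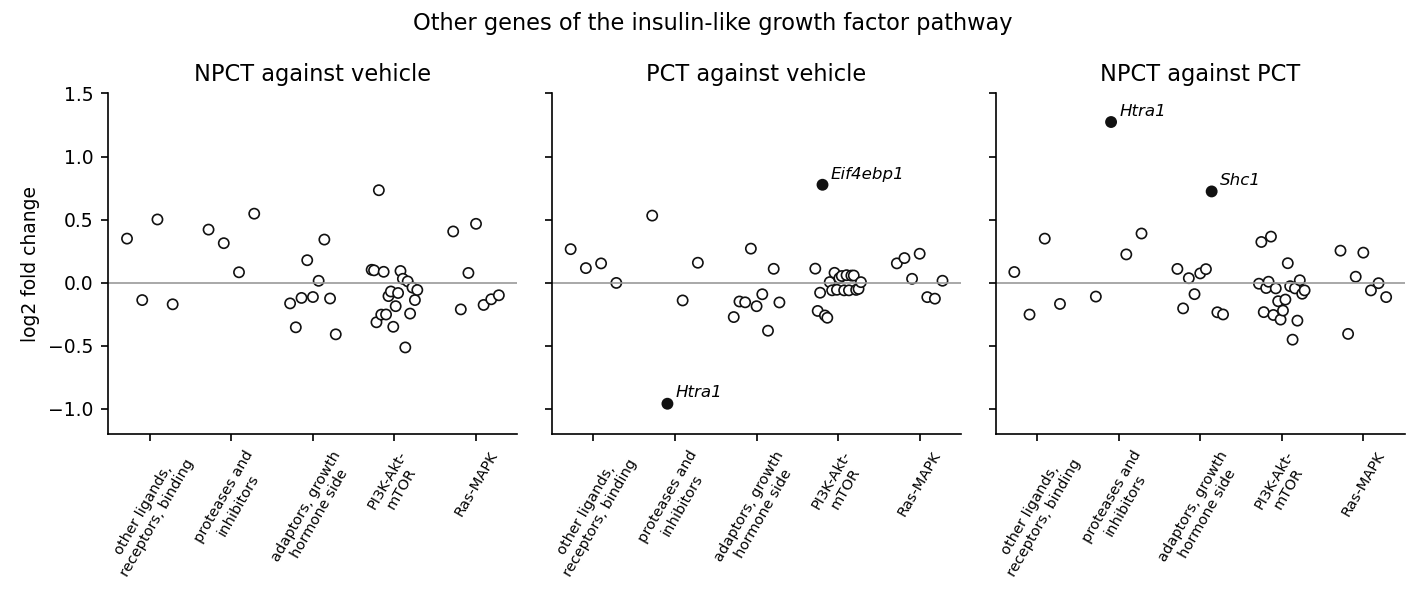
Log2 fold change of the 44 pathway genes tested outside the members, by list, in the 3 comparisons; filled points were called. Htra1 and Eif4ebp1 are called with PCT, Htra1 and Shc1 between the peptides, and none with NPCT against vehicle.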

How the data were processed

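The authors aligned clean reads to the rat genome with HISAT2 2.0.5, counted reads per gene with featureCounts 1.5.0-p3 and calculated FPKM; their processing notes name the build Rnor_6.0. Deposited were FPKM of 34092 genes in 9 libraries, on a linear scale. The authors tested counts with DESeq2. Whole fragments per gene were recovered from FPKM and gene length (100% of values above 0 came out whole, tolerance 0.05). In genes averaging 0.5 FPKM or more, values were logged after adding 0.1, and the 3 groups were fitted jointly over 9 libraries with limma 3.58.1 (R 4.3.3), with a variance prior that follows the level. P values were adjusted by Benjamini-Hochberg over all genes of a comparison. The procedure was tested on simulated data, where it missed many changed genes with few fragments (about the depth of Igf1) and few with many. The simulation gave every gene the same dispersion and every changed gene the same size of change. It held no library that stood apart, unlike these data. A first pass criterion over all changed genes failed, and the criterion used was set after the outcome was seen.

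All members are described. For members called in a comparison the 3 genes of most similar pattern are named, except 1 that is not reported here, and all called genes of the pathway list. Members and lists were chosen with earlier results of these data known. Alternatives were pseudocounts of 1 and 0.01, a minimum of 1 FPKM or none, scaling by total fragments, quantile normalization, fits restricted to a pair of groups, a block for the replicate number, removal of the gene length trend, limma-voom on fragments, and each library left out. Leaving out NPCT replicate 3 and PCT replicate 3 together was chosen after seeing the data. The symbols Pappa, Irs4, Pecam1 and Itgam were not in the table and were not analysed here.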

Additional observations from a re-analysis of the deposited data

Results flagged for a closer look

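The difference between NPCT and PCT was called, by adjusted p and fold together, in 3 members, where 5.76% of all genes were called. Igfbp7 was 2.26 higher on the log2 scale with NPCT than with PCT, and Igfbp4 was 1.12 higher, each in 3 of 3 libraries against 3 of 3 (limma with Benjamini-Hochberg adjustment, adjusted p = 1.5e-04 and 0.00314). Igf1 differed by -0.73, lower in all 3 NPCT libraries than in all 3 PCT libraries (adjusted p = 0.0324 from limma), with 30 to 60 fragments per library. The calls of Igfbp7 and Igfbp4 held in all 20 alternatives, whereas that of Igf1 was lost in 10 of them, including each fit without 1 NPCT library.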

How the results depend on the processing

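The alternatives left the calls of Igfbp7 and Igfbp4 as they were in all 20 fits, and the count of members called with NPCT against vehicle was 0 in all of them. With no filter on low values Igfbp6 was called in addition with PCT, where 303 of all 23491 genes were called. Of 480 alternative fold changes of the 8 members tested, 458 kept their direction and their side of the threshold, 10 lost a call, all of them Igf1 between the peptides, and 12 turned direction, all of them for Igf1r or Igfbp5 and with log2 fold changes close to 0. With quantile normalization, Igfbp5 turned to -0.033 with PCT and Igf1r to -0.010 between the peptides. Without NPCT replicate 3 and PCT replicate 3 together, the value between the peptides turned to -0.050 for Igf1r and to 0.019 for Eif4ebp1. With single libraries left out, Igf1r ranged from -0.136 to 0.022 with NPCT and from -0.071 to 0.087 between the peptides. Igfbp5 ranged from -0.040 to 0.184 with NPCT, from -0.014 to 0.059 with PCT and from -0.057 to 0.167 between the peptides, and Eif4ebp1 from -0.167 to 0.093 between the peptides.

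The count over all genes moved more. Between NPCT and vehicle it was 35 as reported, 208 with a minimum of 1 FPKM, 9 with no filter, 0 when scaled by total fragments (4671 genes had an unadjusted p under 0.05 in the limma fit as reported), 189 with quantile normalization, 579 with only the 2 groups compared, 391 with limma-voom, 2 with the gene length trend removed, 457 without NPCT replicate 3 and PCT replicate 3 together, and 0 to 562 with single libraries left out. Between PCT and vehicle it was 368, and 172 to 398 with single libraries left out. Between NPCT and PCT it was 919, 454 with only the 2 groups compared, 1437 without both replicates 3, and 525 to 1623 with single libraries left out. The cause was not tested. The replicate number as a block gave 319 called genes between NPCT and vehicle, and it changed no call of a member; departures from the group means of libraries with the same number correlated by -0.0878 to 0.165, so the numbers were not treated as pairs. Depth limits Igf2 and Igfbp6, with at most 46 and 10 fragments per library.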
